A study of Rattus norvegicus with 4 samples.

Results

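The 400 spots described here were those richest in transcripts of inhibitory neurons in a spatial transcriptome of the rat trigeminal nerve. They were chosen among the 6623 spots with 2000 or more unique molecular identifiers (UMIs, each a captured transcript), of 6773 spots in all, as the 400 with the highest summed CPM (UMIs of a gene scaled to a common total of 1000000 UMIs) of Slc32a1, Slc6a5, Gad1 and Gad2. A spot is a small printed disc of the slide that can hold several cells of different types, so fewer inhibitory cells in a spot and less RNA per cell cannot be told apart. They are called inhibitory spots below.

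The study used the Visium assay on 10 µm sections of wild type tissue, and its methods give adult male Sprague-Dawley rats. Trigeminal neuralgia (TN) was modelled by chronic mechanical compression of the trigeminal nerve root on 1 side. Root, ganglion and proximal branches of the compressed side of 3 animals filled the capture areas TN1, TN2 and TN3, and control tissue (HC) of 2 animals shared the fourth area. The design text takes HC from the uncompressed side of animals of the TN group, whereas the methods describe sham-operated controls, and this was not resolved.

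Inhibitory neurons release GABA or glycine. Gad1 and Gad2 encode the enzymes that make GABA from glutamate, Slc6a5 encodes the transporter that takes glycine back into the neurons that release it, and Slc32a1 encodes the vesicular transporter that both transmitters share. In the brainstem and spinal cord many neurons use glycine, often together with GABA, and the brainstem sensory nuclei of the trigeminal nerve hold many such cells, whereas the ganglion holds the cell bodies of sensory neurons that release glutamate.

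The promoter sequences of the 4 genes are shown because these genes define the spots. Each line gives the 100 bases before the start of transcription from RefSeq on the assembly GRCr8, all on the plus strand and written 5′ to 3′. Capitals mark the dinucleotide CG.
Slc32a1: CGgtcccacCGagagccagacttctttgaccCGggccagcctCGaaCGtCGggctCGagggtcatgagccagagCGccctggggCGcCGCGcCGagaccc
Slc6a5: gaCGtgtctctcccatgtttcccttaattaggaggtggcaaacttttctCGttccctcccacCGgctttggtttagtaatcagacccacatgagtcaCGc
Gad1: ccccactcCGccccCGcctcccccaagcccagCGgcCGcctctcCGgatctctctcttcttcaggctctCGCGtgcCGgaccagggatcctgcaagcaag
Gad2: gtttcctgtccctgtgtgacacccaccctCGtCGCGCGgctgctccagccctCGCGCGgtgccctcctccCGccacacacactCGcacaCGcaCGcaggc

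These windows lie at chr3:167687145-167687244 for Slc32a1, chr1:108781453-108781552 for Slc6a5, chr3:75777352-75777451 for Gad1 and chr17:89671618-89671717 for Gad2. The Slc32a1 window held 12 CG and the Gad2 window 11, numbers reached by 11.0% and 13.6% of the 33469 rat promoter windows of this length, whose median was 3. The Gad1 window held 8 CG, reached by 24.1%, and the Slc6a5 window held 4, reached by 42.0%. The letters TATAAA were found in none of the 4 windows on either strand. The genome build behind the deposited counts was not given in the sources used here, so these coordinates were not joined to the counts.

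The inhibitory spots lay almost wholly in TN1 and TN2. TN1 held 319 of them, 20.2% of its 1578 spots with 2000 or more UMIs (95% exact interval 18.3 to 22.3%). TN2 held 76 of 1240 (6.13%, 4.86 to 7.61%). TN3 held 3 of 1801 (0.167%, 0.0344 to 0.486%) and HC held 2 of 2004 (0.0998%, 0.0121 to 0.360%), and these 5 spots carried only 1 or 2 UMIs of the 4 genes each. The intervals cover counting error only. When every spot was thinned to 2000 UMIs before ranking, TN1 supplied 251, TN2 86, TN3 30 and HC 33, and 239 of the 400 were chosen again. Because HC and TN3 held so few by the rule used, the effect of root compression on inhibitory spots could not be examined, and all comparisons below are among spots of TN1 and TN2, each from 1 animal. How much brainstem each section took in was not measured here, and its part in the counts of spots was not tested.

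**Figure D1:**
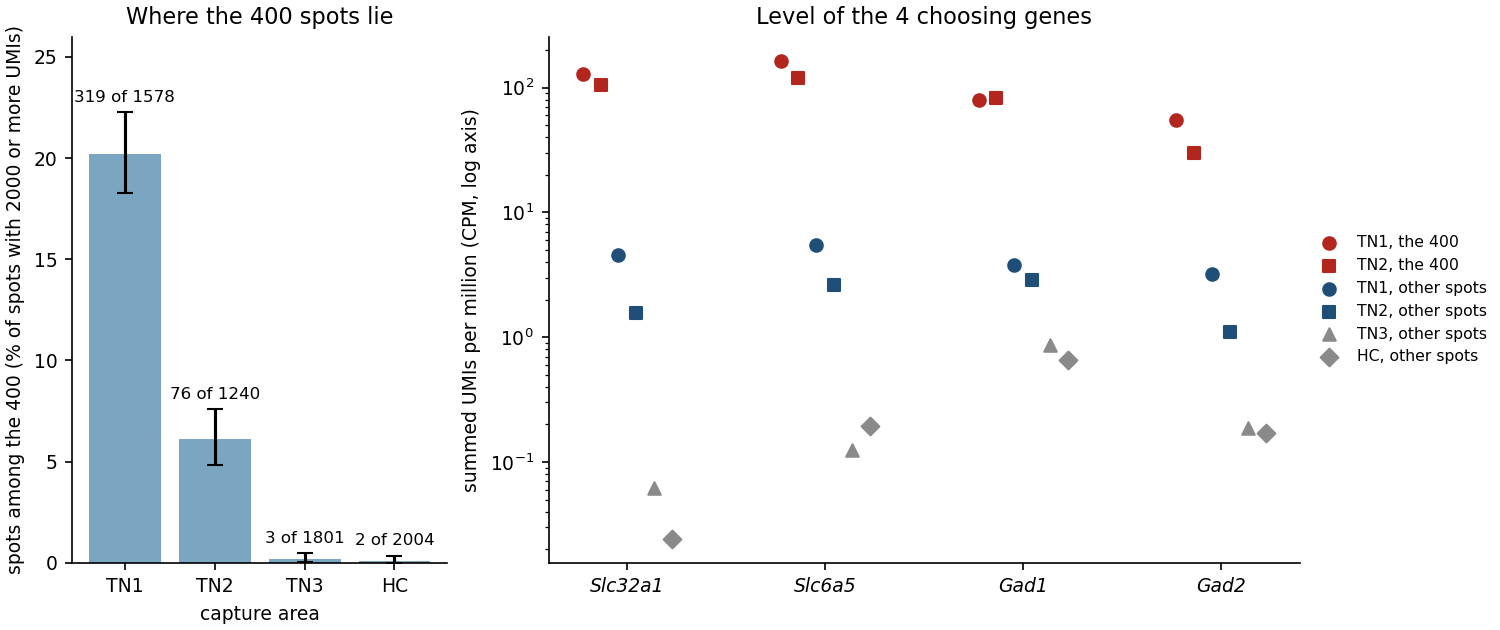
Left, the percent of the spots with 2000 or more UMIs in each capture area that belonged to the 400 inhibitory spots, with exact 95% binomial intervals. Right, summed CPM on a log axis of the 4 genes that chose the spots, in the inhibitory spots of TN1 and TN2 and in the other spots of all 4 areas; TN1 and TN2 hold nearly all inhibitory spots, and the other spots of TN3 and HC lie below 1 CPM for each gene.

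TN1 was sequenced to 23546025 UMIs and TN2 to 38769935, and TN3 and HC reached 32239597 and 41335930. Inhibitory spots had a median of 10818 UMIs in TN1 against 9289 in the other spots of that area, and 17894 in TN2 against 31960.5. Their share of mitochondrial UMIs was higher, at 21.6% in TN1 and 19.9% in TN2 against 9.74% and 7.33% in the other spots. Of the 3573 distinct barcodes, 585 were shared between TN1 and TN2 and 2 of these marked inhibitory spots in both, since every area carries the same printed barcodes.

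The 4 choosing genes were low even in these spots. Of the 400, 54 held 10 or more UMIs of the 4 genes together, 206 held 3 to 9, 71 held 2 and 69 held 1. All 4 genes were seen in 61 spots, exactly 3 in 102, exactly 2 in 134 and only 1 in 103. The highest summed levels were 2372, 1894 and 1828 CPM, all in TN1. The last spots inside the 400 stood at 149.9, 149.1 and 148.4 CPM and the first outside at 148.0, 147.5 and 147.5 CPM, so no gap separated them from the rest.

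As these genes chose the spots, their levels are a description without a test. Slc32a1 stood at 130 CPM in the inhibitory spots of TN1 and 105 CPM in those of TN2, against 4.52 and 1.56 CPM in the other spots of these areas. Slc6a5 stood at 164 and 119 CPM against 5.48 and 2.60 CPM. Such an excess follows from the choice itself. Gad1 stood at 79.8 and 82.4 CPM against 3.77 and 2.90 CPM, and Gad2 at 54.5 and 30.2 CPM against 3.22 and 1.10 CPM. In the other spots of TN3 and HC the same genes stood at 0.0623 and 0.0242 CPM for Slc32a1, 0.125 and 0.194 CPM for Slc6a5, 0.872 and 0.653 CPM for Gad1, and 0.187 and 0.169 CPM for Gad2.

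Inhibitory spots held 82.2% of all UMIs of the 4 genes in TN1 (1556 of 1894) and 62.3% in TN2 (503 of 807). A UMI of at least 1 of them was also found in 20.02% of the other spots of TN1 and 19.1% of those of TN2. The corresponding shares in TN3 and HC were 2.06% and 2.05% at median depths of 15197.5 and 14670.5 UMIs. Spots with these transcripts therefore remained among the spots of comparison in TN1 and TN2.

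To see whether the 4 transcripts lay in the same spots, the choice was repeated with each gene left out in turn and that gene was then read. Slc6a5 stood at 136 CPM in spots chosen without it against 10.3 CPM elsewhere in TN1 (13.2-fold), and at 102 against 3.35 CPM in TN2 (30.4-fold). Slc32a1 differed 12.3-fold in TN1 and 42.4-fold in TN2. Gad1 differed 8.80-fold and 19.2-fold, and Gad2 differed 7.82-fold and 21.3-fold. Each transmitter gene was thus concentrated in the spots that the other 3 picked out, in both animals.

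**Figure D2:**
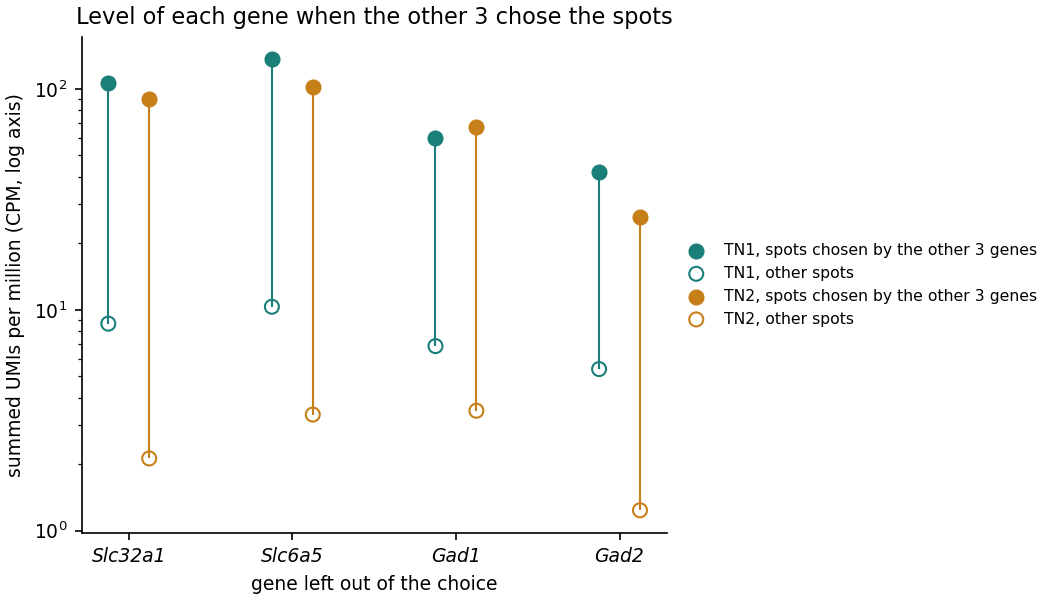
Summed CPM on a log axis of each of the 4 genes in the 400 spots chosen by the other 3 genes (filled) and in the other spots (open) of TN1 and TN2. Filled points lie above open points for every gene in both areas, by 7.82-fold at the least (Gad2 in TN1).

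Glycinergic and GABAergic transcripts were mixed within spots. Both Slc6a5 and a Gad transcript were found in 146 of the 319 inhibitory spots of TN1 and in 43 of the 76 of TN2. Slc6a5 without Gad1 or Gad2 was found in 79 and 12 spots, Gad1 or Gad2 without Slc6a5 in 67 and 17, and Slc32a1 alone in 27 and 4. Slc6a5 made up 55.0% of the summed UMIs of Slc6a5, Gad1 and Gad2 in TN1 and 51.4% in TN2. Among the spots with 5 or more such UMIs, the Slc6a5 share had a median of 60% in TN1 (69 spots, quartiles 40 and 80%) and of 40% in TN2 (27 spots, quartiles 16.7 and 73.9%), and the ranges of both areas overlapped widely, from 13.3 to 100% and from 0 to 100%. With so few UMIs a spot, a missing transcript does not show that the gene was silent.

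The spots with Slc6a5 alone and those with Gad alone also differed in other transcripts, which were picked out after their values were seen and have no test. Lamp5, which encodes a membrane protein of synaptic vesicles in inhibitory neurons, stood at 441 CPM with Slc6a5 alone and 222 CPM with Gad alone in TN1, and at 594 and 260 CPM in TN2. Calb2, which encodes the calcium buffer calretinin, stood at 268 and 132 CPM in TN1 and 207 and 77.6 CPM in TN2. Both levels were higher with Slc6a5 alone in either area. The summed level of genes of the transmitter release machinery was also higher with Slc6a5 alone, at 6373 against 5754 CPM in TN1 and 8971 against 6504 CPM in TN2, while Pvalb stood at 681 against 927 CPM in TN1 and 2569 against 1598 CPM in TN2. The Gad-alone spots of TN1 carried more transcripts of Schwann cells, 11855 against 4530 CPM summed over 6 markers, which was not so in TN2 (2723 against 2941 CPM).

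Against all other spots of TN1 and TN2, the inhibitory spots were higher in most, but not all, of the tested genes of several neuronal lists. These were channels of fast-firing neurons counted together with the calcium buffer Pvalb (9 of 15), and GABA and glycine receptors with their scaffold (10 of 16). Glutamate release and reception (8 of 12, with 1 lower), the perineuronal net (6 of 8) and GABA and glycine handling (9 of 16, with 1 lower) were others. Other neuronal lists did not reach most of their genes. These included the transmitter release machinery (7 of 22, with 1 lower), neuropeptides (5 of 19, with 7 lower) and calcium-binding proteins (5 of 10, with 1 lower). The inhibitory spots were also higher in 9 of 10 oligodendrocyte and all 8 astrocyte genes. They were lower in all tested genes of sensory ganglion neurons, Schwann cells and connective tissue. UMIs were summed over each class of spots in each area and compared with edgeR's quasi-likelihood test with the area as a block and Benjamini-Hochberg adjustment at 0.05. Of 12366 genes tested, 1256 (10.2%) were higher and 1506 (12.2%) lower, 22.3% in all, and the median log2 fold change was -0.06. All 1506 lower genes were lower in both areas, and 1237 of the 1256 higher genes were higher in both. Choosing spots by neuronal transcripts also favours neuron-rich central tissue, so these calls describe the company the 4 genes keep and are not independent of the choice. The fit rests on 2 areas with 1 residual degree of freedom, and without the block it called 28 genes higher and 57 lower. Leaving out genes of hemoglobin, ribosomal proteins and the mitochondrial genome, it called 1087 higher and 1272 lower.

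A second comparison set the inhibitory spots against other central tissue, spots rich in oligodendrocyte transcripts. It used the 400 other spots of TN1 and TN2, 253 and 147 of them, with the highest summed CPM of Mog, Mobp, Opalin and Ermn, genes of myelinating oligodendrocytes. These spots had a median of 6320 UMIs in TN1 and 8061 in TN2, below the inhibitory spots, and mitochondrial shares of 15.6% and 12.6%, and the part of depth and of these shares in the results was not tested. Of 10362 genes tested, 297 (2.87%) were higher and 340 (3.28%) lower in the inhibitory spots (6.15% in all), each of them in the same direction in both areas, and the median log2 fold change was -0.02. Without the area block it called 0 genes in either direction by edgeR, with 1748 at an unadjusted p under 0.05, while DESeq2 with the block called 526 and 441. With members required to hold 3 or more UMIs of the 4 genes, an alternative chosen after the data were seen, it called 643 and 722. With a minimum of 5000 UMIs per spot it called fewer, 97 higher and 176 lower. Both comparisons share the inhibitory spots, and the oligodendrocyte-rich spots are also among all other spots, so their calls are not independent of each other. Choosing spots by 4 oligodendrocyte genes also favours other genes of oligodendrocytes in them. Lower calls of such genes are therefore not independent of that choice, nor are higher neuronal calls independent of the choice of the inhibitory spots.

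Genes that handle GABA and glycine were the first group examined. Of 18, 16 were tested against all other spots, and 9 were higher, 1 lower and 6 not called, with a median log2 fold change of 1.04. Abat, which encodes the enzyme that breaks down GABA, stood at 35.5 CPM in TN1 and 40.2 CPM in TN2 against 10.3 and 7.89 CPM in the other spots. It was higher by 2.21 ± 0.25 on the log2 scale (SE, 2 areas, edgeR adjusted p = 1.85e-07). Slc6a9, the glycine transporter known mainly from glia, stood at 207 and 152 CPM against 69.2 and 32.7 CPM and was also higher (2.05 ± 0.22, edgeR adjusted p = 8.57e-08). Slc6a13, a GABA and taurine transporter of the meninges, was the member that was lower, at 4.68 and 30.2 CPM against 18.0 and 90.3 CPM.

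Against the oligodendrocyte-rich spots Abat was the gene of this group that edgeR called, at 35.5 and 40.2 CPM against 15.5 and 16.6 CPM (log2 fold change 1.25 ± 0.27, edgeR adjusted p = 0.0397), of 15 tested, while DESeq2 called 2 higher and 1 lower. With 1 call, the group cannot be set apart from the 6.15% of all genes that edgeR called in this comparison. Slc6a9 stood at 320 and 293 CPM in those spots, above its level in the inhibitory spots, and was not called (edgeR adjusted p = 0.0733).

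Receptors for the 2 transmitters followed. Of 25 genes for GABA-A, GABA-B and glycine receptor subunits and their scaffold, 16 were tested against all other spots, and 10 were higher, 0 lower and 6 not called by edgeR, with a median log2 fold change of 1.30, while DESeq2 called 8 higher and 0 lower, and the unadjusted p was under 0.05 for 11 higher and 0 lower. Glrb, the beta subunit that anchors glycine receptors at the synapse, stood at 230 CPM in TN1 and 215 CPM in TN2 against 113 and 59.2 CPM. It was higher by 1.59 ± 0.23 (edgeR adjusted p = 4.73e-06). Gabra5, a GABA-A receptor subunit, stood at 58.6 and 75.7 CPM against 30.1 and 28.0 CPM and was higher by 1.35 ± 0.21 (edgeR adjusted p = 1.45e-05). Both genes stood higher in the inhibitory spots of either area. Glra1, the adult glycine receptor alpha subunit, gave 10 and 3 UMIs, too few to describe further. The GABA-B receptor genes Gabbr1 (462 and 492 CPM against 450 and 375 CPM) and Gabbr2 were not called.

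Of 10 receptor genes tested against oligodendrocyte-rich spots, 4 were higher by edgeR, among them Glrb, Gabra5 and Gabra6. Glrb stood at 124 and 83.1 CPM in those spots (log2 fold change 1.16 ± 0.24, edgeR adjusted p = 0.0353) and Gabra5 at 22.4 and 17.4 CPM (1.74 ± 0.24, edgeR adjusted p = 0.0171). The call for Gabra6 rested on TN2, as described further on.

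Transcripts of glutamate release and reception were in the same spots. Of 12 genes of this group tested against all other spots, 8 were higher, 1 lower (Grik1) and 3 not called by edgeR, with a median log2 fold change of 1.28, while DESeq2 called 7 higher and 0 lower. Slc17a6, the vesicular glutamate transporter VGLUT2, stood at 133 and 119 CPM against 96.5 and 71.9 CPM, and a UMI of it was found in 60.8% of the inhibitory spots of TN1 and 71.1% of those of TN2. The same share was 47.2% and 68.4% in the other spots of these areas. Slc17a7, another vesicular glutamate transporter, was called higher on TN2 alone, at 515 CPM against 112 CPM, while in TN1 it stood at 143 CPM against 165 CPM. Slc17a6 transcripts were thus present in most of the inhibitory spots, but a UMI of this gene was also found in 55.7% of the other spots of HC. Its presence is therefore not particular to the inhibitory spots. Among AMPA receptor subunits, Gria3 stood at 58.0 and 80.4 CPM against 12.9 and 9.82 CPM and was among the 10 genes with the largest rise (2.75 ± 0.23, edgeR adjusted p = 3.84e-09). Gria4, known from fast synapses of the auditory and motor brainstem, stood at 65.7 and 79.1 CPM against 19.3 and 9.96 CPM (2.51 ± 0.24, edgeR adjusted p = 2.58e-08). Slc17a6, Grin1, Gria3 and Gria4 were higher than in oligodendrocyte-rich spots too, 4 of 11 tested.

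Channels of fast-firing neurons, counted together with the calcium buffer Pvalb, were prominent. Of 15 such genes tested against all other spots, 9 were higher, 0 lower and 6 not called by edgeR, with a median log2 fold change of 0.99, while DESeq2 called 7 higher and 0 lower, and the unadjusted p was under 0.05 for 9 higher and 0 lower. Kcnc1 encodes Kv3.1, a potassium channel that ends action potentials quickly, and it stood at 109 CPM in TN1 and 145 CPM in TN2 against 22.8 and 13.1 CPM. Its log2 fold change of 3.01 ± 0.24 was the third largest of all genes that met the rule for naming (edgeR adjusted p = 2.77e-09). Scn1a, the sodium channel Nav1.1 of inhibitory neurons, stood at 95.7 and 60.3 CPM against 35.1 and 13.2 CPM (1.94 ± 0.22, edgeR adjusted p = 1.79e-07). A UMI of Kcnc1 was found in 57.7% and 72.4% of the inhibitory spots and in 20.4% and 21.0% of the others.

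Kcnc1, Kcna2, Scn1a and Scn4b were among the 6 of 14 tested that were higher than in oligodendrocyte-rich spots, where Kcnc1 stood at 43.2 and 24.2 CPM (1.94 ± 0.32, edgeR adjusted p = 0.0238). Scn4b, at 296 and 227 CPM in the inhibitory spots, was not called against all other spots (edgeR adjusted p = 0.221). Pvalb, the calcium buffer parvalbumin, stood at 692 and 2026 CPM against 304 and 212 CPM in all other spots and was higher by 2.38 ± 0.35 (edgeR adjusted p = 7.21e-06). Against the oligodendrocyte-rich spots, at 375 and 354 CPM, Pvalb did not pass (edgeR adjusted p = 0.0521).

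Among 10 calcium-binding proteins, Pvalb included, 5 were higher, 1 lower and 4 not called against all other spots, with a median log2 fold change of 0.50, and DESeq2 called 2 higher and 1 lower. Calb2 stood at 203 and 142 CPM against 86.1 and 42.8 CPM (1.63 ± 0.21, edgeR adjusted p = 1.46e-06), and at 70.9 and 25.7 CPM in oligodendrocyte-rich spots (1.94 ± 0.24, edgeR adjusted p = 0.0171). Vsnl1, which encodes visinin-like protein 1, was likewise higher in both comparisons. Necab1 was lower than in all other spots, at 27.5 and 5.36 CPM against 101 and 40.0 CPM.

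Neuropeptide precursors went both ways, with 5 of 19 tested higher, 7 lower and 7 not called against all other spots and a median log2 fold change of -0.81. DESeq2 called 2 higher and 6 lower. Penk, the precursor of enkephalins, stood at 80.0 CPM in TN1 and 97.2 CPM in TN2 against 24.1 and 10.5 CPM (2.60 ± 0.26, edgeR adjusted p = 3.27e-08). Sst, the precursor of somatostatin, stood at 69.6 and 387 CPM against 29.7 and 33.4 CPM (2.57 ± 0.33, edgeR adjusted p = 1.18e-06). Penk and Sst were the peptide genes also higher than in oligodendrocyte-rich spots, 2 of 14 tested, with edgeR adjusted p = 0.029 and 0.0434. Pnoc, Nts and Scg2 were also called higher, although Nts stood at 0.670 CPM against 2.50 CPM in TN2, so that its call rests on TN1, and Scg2 stood at 185 CPM in both classes of TN1, so that its call rests on TN2. The 7 that were lower were Tac1, Vip, Adcyap1, Nmb, Ucn, Gal and Vgf, and Tac1, the substance P precursor of pain-sensing neurons, stood at 133 and 66.4 CPM against 626 and 393 CPM (log2 fold change -2.23, edgeR adjusted p = 8.57e-08).

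The machinery of transmitter release was higher in part. Of 22 genes tested against all other spots, 7 were higher, 1 lower and 14 not called, with a median log2 fold change of 0.60. Snap25, a SNARE protein of vesicle fusion, stood at 2612 CPM in TN1 and 3135 CPM in TN2 against 1177 and 562 CPM (1.97 ± 0.33, edgeR adjusted p = 4.97e-05). Vamp1, the vesicle partner common in brainstem and spinal cord, stood at 1171 and 1327 CPM against 599 and 295 CPM. Of 21 tested against oligodendrocyte-rich spots 7 were higher (11 by DESeq2), among them Snap25 with 1008 and 513 CPM there (2.07 ± 0.34, edgeR adjusted p = 0.024).

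Of 8 perineuronal net genes tested against all other spots, 6 were higher by edgeR and 4 by DESeq2, with a median log2 fold change of 1.89. Perineuronal nets are sheaths of matrix around fast-firing neurons. Hapln4, a link protein of these nets at inhibitory synapses, stood at 275 and 340 CPM against 87.0 and 36.7 CPM (2.58 ± 0.27, edgeR adjusted p = 8.16e-08). Hapln1, another link protein, stood at 67.1 and 59.7 CPM against 20.7 and 6.87 CPM. Both were higher than in oligodendrocyte-rich spots as well, by 2.14 ± 0.36 and 2.50 ± 0.43 (edgeR adjusted p = 0.0244 and 0.0249). They were the 2 called higher of 7 net genes tested there, with 1 lower and 4 not called. The median log2 fold change of the 7 was -0.32. Hapln2, made by oligodendrocytes, was higher than in all other spots but lower than in oligodendrocyte-rich spots, where it stood at 386 and 376 CPM against 133 and 129 CPM.

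**Figure D3:**
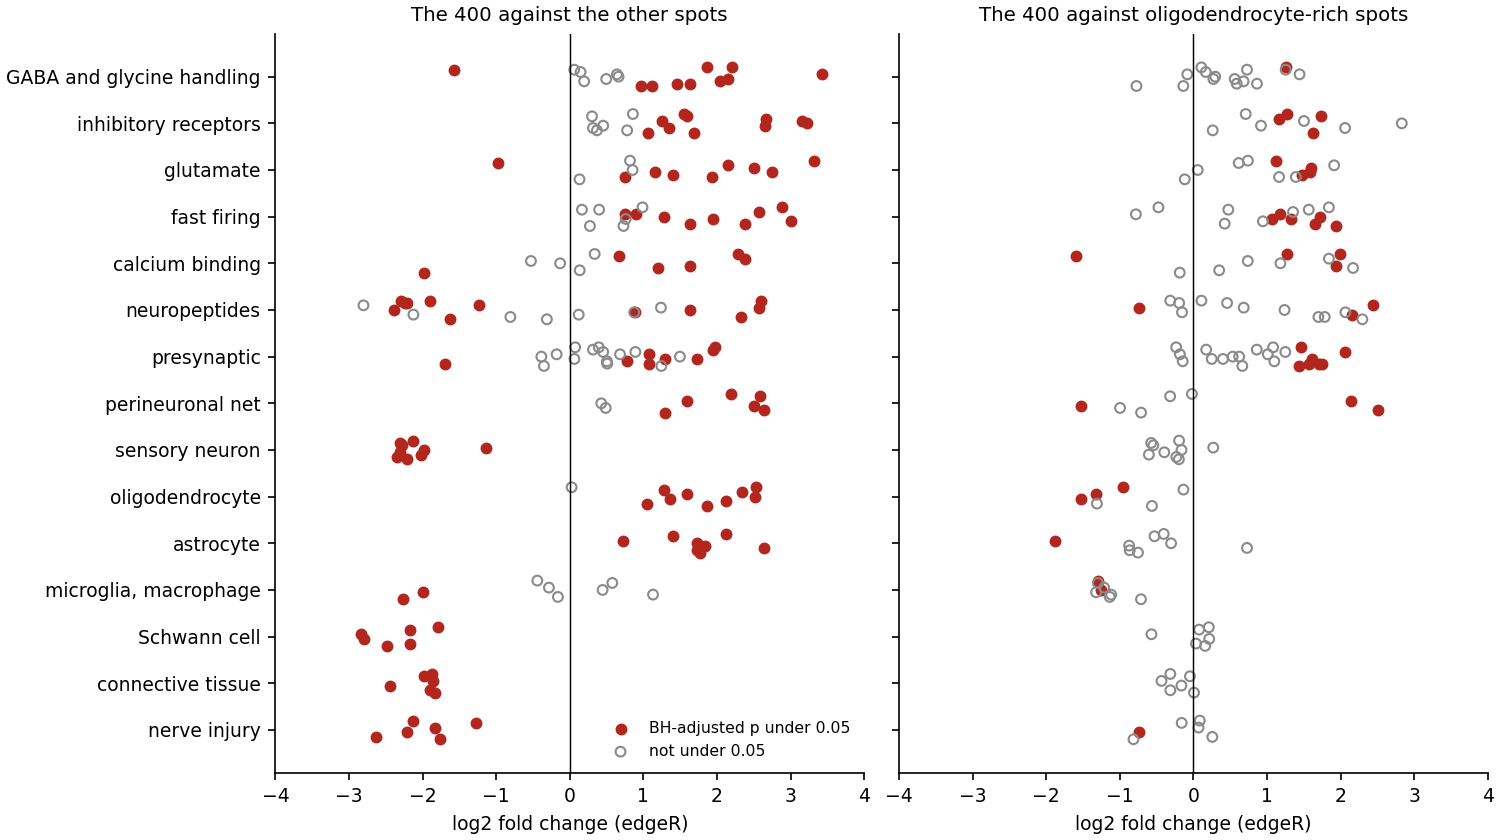
Each point is 1 gene of a list, placed at its log2 fold change by edgeR between the inhibitory spots and all other spots of TN1 and TN2 (left) or oligodendrocyte-rich spots (right); filled red points have a Benjamini-Hochberg adjusted p under 0.05. Most neuronal lists lie mainly right of 0 in both panels, neuropeptides go both ways on the left, and Schwann cell, connective tissue and sensory neuron genes lie left of 0 on the left and near 0 on the right.

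The genes with the largest differences by the rule for naming ran across these groups. Against all other spots the 10 highest were Rasgrf1, Lamp5, Kcnc1, Tnnc2, Slc7a10, Gria3, Gng13, Slc25a18, B3gat1 and Cldn10. Rasgrf1, a calcium-dependent activator of Ras in neurons, stood at 230 CPM in TN1 and 141 CPM in TN2 against 37.4 and 10.5 CPM (3.31 ± 0.25, edgeR adjusted p = 6.55e-10). Slc7a10, an amino acid transporter that carries glycine and D-serine, stood at 134 and 114 CPM against 28.5 and 11.5 CPM (2.91 ± 0.23, edgeR adjusted p = 2.77e-09). Lamp5 stood at 432 and 424 CPM against 64.7 and 45.8 CPM (3.13 ± 0.24, edgeR adjusted p = 7.02e-10), and a UMI of it was found in 80.9% and 84.2% of the inhibitory spots.

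Against oligodendrocyte-rich spots Lamp5 led, at 106 and 48.4 CPM there (2.55 ± 0.26, edgeR adjusted p = 0.0133), followed by Hapln1, Sst, Esrrg, Penk, Pcp4l1, Hapln4, Snap25, Ina and Kcnab1. Ina, a neurofilament protein of central neurons, stood at 379 and 443 CPM against 136 and 71.8 CPM (2.06 ± 0.28, edgeR adjusted p = 0.0171). The 10 lowest were Klk6, Sema4d, Smim5, Ramp3, Bace2, Lcat, Hspa2, Cdkn1c, Mt2A and Fgd3. Klk6, a protease of oligodendrocytes, stood at 193 and 172 CPM against 760 and 1153 CPM (-2.35 ± 0.25, edgeR adjusted p = 0.0133). Sema4d, a semaphorin that oligodendrocytes carry, stood at 102 and 67.0 CPM against 461 and 377 CPM (-2.32 ± 0.22, edgeR adjusted p = 0.00957).

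The genes furthest below the other spots were sparse, and Bfsp1, Ddn, Slc2a9, Ankrd1, Chp2, Smpd5, Slc9a3, Itgb6, Slpi and Ptgir were the 10 named. Ptgir, the receptor for prostacyclin, gave 14 UMIs in the inhibitory spots of TN1 and 3 in those of TN2, at 3.85 and 2.01 CPM against 29.8 and 30.4 CPM elsewhere (-3.06 ± 0.35, edgeR adjusted p = 2.06e-07). For the other 9, either area gave at most 11 UMIs in the inhibitory spots.

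Transcription factors and regional markers were mostly near the limit of detection. Of 19 factors on the list drawn up for hindbrain inhibitory lineages, 8 were tested against all other spots. By edgeR 4 were higher, namely Pax8, Gata2, Tfap2b and Neurod6, while DESeq2 called 2. A place on the list does not show that a factor is confined to these lineages. Pax8 gave 25 UMIs in the inhibitory spots of TN1 and 2 in those of TN2, and Tfap2b gave 16 and 3. The calls for Pax8 and Tfap2b therefore rest mainly on TN1. Neurod6 gave 26 and 23 UMIs. Gata2 gave 22 UMIs in TN1 and 11 in TN2, at 6.05 and 7.37 CPM against 2.76 and 2.95 CPM (1.37 ± 0.46, edgeR adjusted p = 0.0314). Among others, Pax2, Lhx5, Sox14 and Dmbx1 were at 0 in the inhibitory spots of both areas, where 0 UMIs allow up to 0.825 CPM in TN1 and 2.01 CPM in TN2. Of 7 forebrain genes, 6 in TN1 and 4 in TN2 were at 0 in the inhibitory spots and none was tested. Chat, which marks cholinergic motor neurons, was at 0 in all spot classes of both areas, and the cerebellar Purkinje cell gene Pcp2 was likewise at 0.

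Hox genes, which mark positions along the hindbrain, differed between the 2 areas. Their summed level over 16 genes was 55.0 CPM in the inhibitory spots of TN1 and 5.36 CPM in those of TN2, with 5 and 14 of the 16 at 0. The sum also differed outside them, at 30.1 CPM in the other spots of TN1 and 10.6 CPM in those of TN2. Most of the sum in the other spots was Hoxd1, at 24.5 and 9.02 CPM there. In the inhibitory spots Hoxd1 stood at 8.53 and 1.34 CPM. In oligodendrocyte-rich spots the sum over the 16 genes stood at 18.1 and 6.80 CPM. Hoxc4 gave 49 UMIs in TN1 (13.5 CPM) and 0 in TN2, Hoxd3 gave 22 and 0, and Hoxb5 gave 19 and 0. Hoxa2 was seen in both, at 10.5 and 4.02 CPM against 1.46 and 1.13 CPM in the other spots (2.62 ± 0.52, edgeR adjusted p = 0.000388). The calls for Hoxc4 and Hoxd3 against all other spots rest on TN1, since neither gave a UMI in the inhibitory spots of TN2. The 4 tested Hox genes gave 3 higher and 1 lower (Hoxd1) by edgeR, and 2 and 1 by DESeq2.

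The inhibitory spots also held transcripts of oligodendrocytes and astrocytes. Of 10 oligodendrocyte genes 9 were higher than in all other spots, with a summed level of 2882 CPM in TN1 and 2296 CPM in TN2 against 1146 and 916 CPM, led in level by Cldn11. All 8 astrocyte genes were higher, summing to 2070 and 2979 CPM against 959 and 1227 CPM. In the oligodendrocyte-rich spots the oligodendrocyte sum was 5594 and 6279 CPM and the astrocyte sum 3547 and 8905 CPM. Against those spots 3 of 6 oligodendrocyte genes (Hapln2, Aspa and Mag) and 1 of 8 astrocyte genes (Gfap) were lower by edgeR, and 4 and 3 by DESeq2. The oligodendrocyte calls are not independent of how those spots were chosen. Of the microglia and macrophage list, Cd68 and Lyz2 were lower than in all other spots and Tmem119 and Aif1 lower than in oligodendrocyte-rich spots, 2 of 8 in either comparison by edgeR, and DESeq2 called 2 and 5 lower. Of 5 vessel wall genes 3 were higher and 1 lower than in all other spots (1 and 1 by DESeq2). Of 2 precursor genes of oligodendrocytes 1 was lower by edgeR (Cspg4) and 0 by DESeq2, with both at an unadjusted p under 0.05, too few to set against the 12.2% of all genes that were lower.

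Peripheral transcripts were reduced but present. All 9 tested genes of sensory ganglion neurons were lower than in all other spots, and the sum over all 12 genes of the list was 1023 and 739 CPM against 4722 and 4057 CPM, with Prph the most abundant. Calca, the precursor of CGRP in pain-sensing neurons, stood at 135 and 132 CPM against 704 and 816 CPM (-2.35 ± 0.25, edgeR adjusted p = 6.92e-08). All 6 Schwann cell genes were lower, at a sum of 5303 and 2770 CPM against 30305 and 22137 CPM. All 6 connective tissue genes and all 6 tested genes of the nerve injury response, Atf3 among them (17.3 and 61.0 CPM against 94.7 and 268 CPM), were lower (5 of the injury list by DESeq2). Against oligodendrocyte-rich spots 0 of the 9 sensory, 6 Schwann and 6 connective tissue genes were called by edgeR or by DESeq2, with 1 sensory gene and 0 of the others at an unadjusted p under 0.05, and of the injury list Gal was lower. The part of peripheral RNA in the other results was not tested.

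By edgeR, blood and bone genes were called in 1 of 7 against all other spots (Ibsp, lower), no more than the 22.3% of all genes, and by DESeq2 in 0. Monoamine genes were called in 2 of 4 by edgeR (Ddc higher, Tph2 lower), whereas DESeq2 called 1 higher and 0 lower, and the motor list was called in 1 of 1 (Isl1, lower, which sensory neurons also express). Pituitary hormone genes were called in 0 of 4 by edgeR or DESeq2, with 1 at an unadjusted p under 0.05, and their levels were 52.3 and 64.3 CPM in sum against 25.9 and 330 CPM.

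Some neuronal levels varied with rank among the 400. In the first 100 spots, which held a median of 9 UMIs of the 4 genes, the release machinery summed to 8280 CPM, and in the last 100, with a median of 2, it summed to 6272 CPM. Lamp5 stood at 619 CPM in the first 100 and 263 CPM in the last. Kcnc1 stood at 151 and 104 CPM, and Slc17a6 at 117 and 125 CPM. The fast-firing sum was 3044 CPM in the first 100 and 2999 CPM in the last, and the glutamate sum 804 and 795 CPM. The Schwann cell sum went the other way, from 2987 CPM in the first 100 to 3538, 4548 and 7916 CPM in the next 3 groups of 100, while the oligodendrocyte sum stayed between 2607 and 2895 CPM. The lower ranks were therefore poorer in Lamp5 and richer in peripheral myelin transcripts, and TN1 supplied 78 to 83 spots of every 100.

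**Figure D4:**
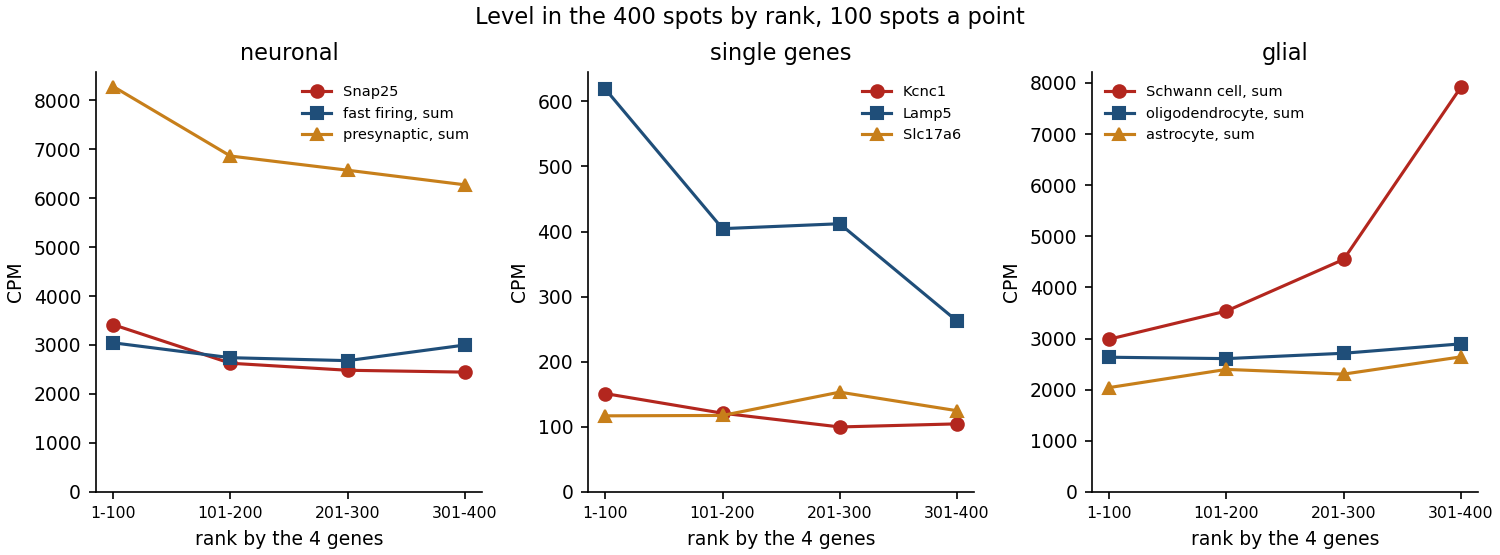
CPM in the 400 inhibitory spots split by rank into 4 groups of 100, each point summing the UMIs of 100 spots; left, neuronal lists and Snap25, middle, single genes, right, glial lists. Lamp5 is lower and the Schwann cell sum higher toward the last ranks, while the oligodendrocyte sum stays between 2607 and 2895 CPM.

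Levels in the inhibitory spots of TN1 and of TN2 were set side by side. With 1 area and 1 animal each there is no test, the intervals cover counting error only, and animal, section and place in the brainstem cannot be told apart. Of 7457 genes with 50 or more UMIs in both sums together, 238 (3.19%) were 2-fold or more higher in TN1 and 205 (2.75%) in TN2, 5.94% in all. Of the 14 release genes with as many UMIs, 0 reached 2-fold, a count too small to set against that share.

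Of the inhibitory receptor genes with 50 or more UMIs, 2 of 9 were higher in TN2, namely Gabra6 and Gabrd. Gabra6, a GABA-A receptor subunit known from granule cells of the cerebellum and cochlear nucleus, gave 3 UMIs (0.825 CPM) in the inhibitory spots of TN1 and 87 (58.3 CPM) in those of TN2, a 70.7-fold difference (95% interval 23.4 to 349). It was found in 35.5% of those spots of TN2 and in 0.940% of those of TN1, against 6.79% and 0.238% of the other spots. The other spots of TN2 gave 240 UMIs of Gabra6 (6.44 CPM). The most in a single spot was 56 UMIs there, against 14 in the inhibitory spots of TN2. In oligodendrocyte-rich spots Gabra6 stood at 0.533 CPM in TN1 and 18.1 CPM in TN2. Gabrd, the delta subunit that pairs with it, stood at 5.78 and 39.5 CPM (6.85-fold, 4.10 to 11.9). Cbln1, a synapse organiser of granule cells, stood at 80.6 and 160 CPM, just short of 2-fold, and the granule cell genes Neurod1 and Fat2 gave at most 1 UMI in either area.

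Hcn4, a pacemaker channel, stood at 8.25 and 70.4 CPM (8.53-fold, 5.64 to 13.3). Slc17a7, the vesicular glutamate transporter VGLUT1, stood at 143 CPM in TN1 and 515 CPM in TN2, Pvalb at 692 and 2026 CPM and Sst at 69.6 and 387 CPM. In the oligodendrocyte-rich spots the same genes differed less between TN1 and TN2, at 120 and 113 CPM for Slc17a7, 375 and 354 CPM for Pvalb and 29.3 and 40.1 CPM for Sst. A UMI of Sst was found in 84.2% of the inhibitory spots of TN2 and 35.4% of those of TN1. Defb24, Smoc2, Cd24, Cox8b, Cyp11b3, Cryba2 and Kcnk15 were also among the 10 largest differences toward TN2 of genes with a name. Smoc2 stood at 1.10 and 30.8 CPM in the inhibitory spots and at 8.27 and 117 CPM in the remaining spots of TN1 and TN2.

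TN1 was higher in Htr2c, which encodes a serotonin receptor. It stood at 72.9 CPM in TN1 and 4.69 CPM in TN2 (15.5-fold, 7.43 to 39.0) and was found in 42.6% of the inhibitory spots of TN1 but 8.18% of the other spots there. In the remaining spots, which were neither inhibitory nor oligodendrocyte-rich, Htr2c also differed between the areas, at 5.83 and 0.306 CPM, and in oligodendrocyte-rich spots it stood at 18.6 and 0.756 CPM. Nts, the precursor of neurotensin, gave 87 UMIs against 1 (35.7-fold, 6.24 to 1426), and Grifin, a lens galectin relative, gave 224 against 1 (91.9-fold, 16.3 to 3646). Grifin stood at 12.2 and 0.612 CPM in the remaining spots of TN1 and TN2. Ca3, Bmp4, Kcns1, Mlip, Ahsp, Fxyd2 and Sfrp5 completed the 10 among genes with a name. Of these, Kcns1, Mlip, Fxyd2 and Sfrp5 stood higher in the remaining spots of TN1 than in the inhibitory spots, at 38.8, 128, 292 and 381 CPM against 15.7, 14.3, 41.3 and 68.5 CPM.

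Other tissue differed between the same spots. All 4 blood genes with 50 or more UMIs were higher in TN1, Hbb at 509 and 95.2 CPM, and 4 of 6 connective tissue genes were higher in TN2, Col1a1 at 108 and 420 CPM. The remaining spots showed these differences too, with Hbb at 467 and 97.5 CPM and Col1a1 at 536 and 1555 CPM.

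**Figure D5:**
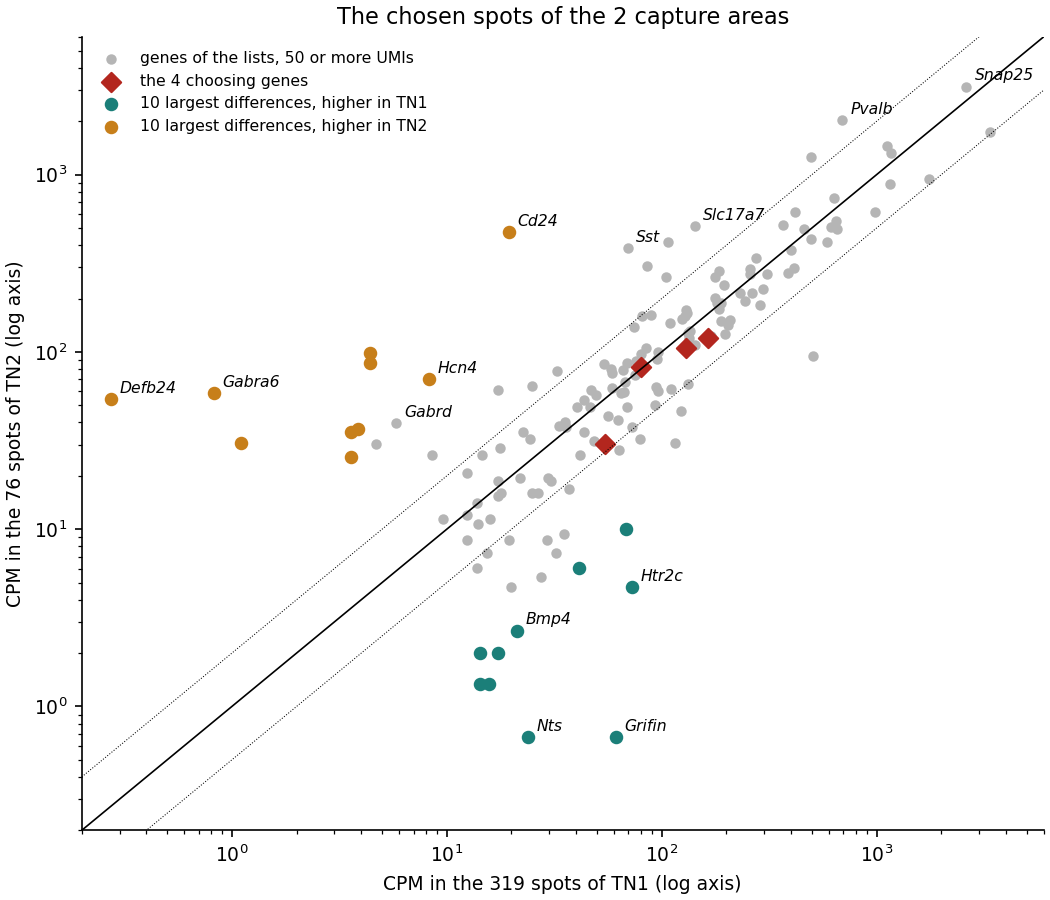
CPM in the 319 inhibitory spots of TN1 (x, log axis) against the 76 of TN2 (y, log axis); grey points are genes of the lists with 50 or more UMIs, red diamonds the 4 choosing genes, coloured points the 10 largest differences in each direction among genes with a name, and dotted lines mark 2-fold. Snap25 and the choosing genes lie within the lines, while Gabra6 and Hcn4 lie above and Htr2c, Nts and Grifin below.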

How the data were processed

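UMI counts per gene and spot were used as the authors deposited them from Space Ranger 1.2.0, with 4 capture areas joined in 1 matrix (32623 genes); the genome build and annotation release were not given in the sources used here. Barcode suffixes gave the area, and they were matched to TN1, TN2, TN3 and HC by the order of areas in the design text. That this order was used when the areas were joined was not checked otherwise. Members were ranked by summed CPM, and UMIs were summed per area and class of spots, since spots are not replicates. edgeR 4.0.16 served for testing the sums, with the quasi-likelihood test, TMM scaling, its filterByExpr filter and area as block, and DESeq2 1.42.0 was the alternative, both in R 4.3.3. The script was tested on simulated data. Intervals were exact (95%). Genes were named by rule: in each direction the 10 largest changes among called genes with 50 or more UMIs in both areas (members for higher, comparison spots for lower), and the 10 largest differences between TN1 and TN2 in each direction; unnamed loci (such as LOC symbols) were counted but not named. Folds used a floor of 3 UMIs when calling differences between TN1 and TN2. Of 286 list genes 281 were found, 1 by a synonym, and 5 were not analysed here. The 26 lists and the members were chosen with earlier results of these data known. The 4 choosing genes, and in the second comparison the 4 oligodendrocyte genes, were left out of all counts. Spot positions were not used. Some genes of the lists and of the naming rule are counted but not reported here by name.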

Additional observations from a re-analysis of the deposited data

How the results depend on the processing

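The share of the 400 spots in TN1, 79.75%, stayed between 78.5 and 80.5% when 1 gene was left out, 200 spots were kept, 5000 UMIs were required or mean log2(CPM + 100) ranked the spots. It was 62.75% after thinning every spot to 2000 UMIs (TN1 and TN2 together 84.25% instead of 98.75%), 65.4% with 800 spots (TN1 523, TN2 221, TN3 31 and HC 25) and 74.6% with 3 or more UMIs of the 4 genes required. Against all other spots, 1256 genes were higher and 1506 lower, which became 828 and 841 with DESeq2 and 28 and 57 with no replicate block (no area term), and stayed within 1.5 times under the other alternatives. Against oligodendrocyte-rich spots, 297 and 340 became 526 higher with DESeq2, 961 and 776 with no filter, 0 and 0 with no replicate block, 97 and 176 from 5000 UMIs, 448 higher with 200 spots, 959 and 850 with 800, and 643 and 722 with 3 or more UMIs of the 4 genes, the last chosen after seeing the data. Between TN1 and TN2, 238 and 205 became 58 and 47 from 200 UMIs a gene, and 134 toward TN2 with 200 spots. The causes of these changes were not tested, apart from the fewer genes at 200 UMIs. None of the 40 named values reversed in direction under any alternative run; 35 lost their call with no replicate block, 4 from 5000 UMIs, 3 of 39 with DESeq2, 2 with 200 spots, 2 with 800 and 1 with 3 or more UMIs. Leaving out 1 area leaves no residual degrees of freedom, so counts could not be fitted; of the 40 single-area ratios, 7 without TN1 and 11 without TN2 moved by over 1 SD between the areas. A level rests on 3635979 UMIs in the inhibitory spots of TN1 and 1491952 in those of TN2, where 3 UMIs are 0.825 and 2.01 CPM.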
